A study of Mus musculus with 22 samples.

Results

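The genes described here are 45 mouse genes of the G1/S transition and of DNA replication, named as a list by their known functions and found in the deposited table of 23286 entries through their RefSeq transcript identifiers. The list was chosen with earlier results of these data known. All 45 had an entry, each of them a single one with no other symbol. They were measured by RNA-seq in mouse embryonic palatal mesenchyme cells (MEPMs), primary cells from the secondary palatal shelves of E13.5 embryos, at passage 2. Before stimulation they spent a night in medium with 0.1% FBS, and an inhibitor, where used, was added ahead of the ligand. No transgene or mutant allele is named in the labels, and replicates came from separate litters.

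With PD325901, an inhibitor of the kinase MEK, at 1 μM, the cells received either FGF1 (50 ng/mL with 1 μg/mL heparin, called FGF here) or PDGFA (30 ng/mL, called PDGF) for 1 or 4 hr. With LY294002, an inhibitor of PI3K, at 10 μM, they received the same ligands for the same times. These 8 inhibitor conditions had 2 samples each. FGF alone and PDGF alone, both at 4 hr, had 3 samples each, which makes 22 samples in 10 conditions. Ligand alone at 1 hr and untreated cells were not analysed here. For each entry the table gives 1 pooled FPKM value a condition (fragments mapped, scaled by exon length and library size), so no spread between samples could be calculated, no test was run and a ratio cannot be set against replicate error. Higher or lower here means a ratio of at least 1.5-fold, among entries above 1 FPKM in either condition, and the percent of all entries that passed the same rule is given beside the counts.

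Entry into S phase is driven by cyclin E and the E2F transcription factors, which are held back by the retinoblastoma protein until cyclin-dependent kinases phosphorylate it. Cdc6 and Cdt1 then load the MCM helicase onto origins in G1 (licensing), and the kinase formed by Cdc7 and Dbf4, with Cdc45 and the GINS complex, turns it into a moving helicase at which polymerases, the PCNA clamp and its loaders copy the DNA. In many cell types the genes of this machinery are E2F targets that are expressed together in late G1 and S phase, and growth factors induce them after quiescence.

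The members fall into 8 roles: the cyclins *Ccne1* and *Ccne2* with the activator E2Fs *E2f1*, *E2f2* and *E2f3*; the repressor E2Fs *E2f7* and *E2f8*; the licensing factors and helicase subunits *Cdc6*, *Cdt1* and *Mcm2* to *Mcm7*; the origin firing factors *Cdc45*, *Cdc7*, *Dbf4*, *Mcm10*, *Gins1*, *Gins2* and *Gins3*; the polymerase and primase subunits *Pola1*, *Pola2*, *Pold1*, *Pole*, *Prim1* and *Prim2*; the clamp, clamp loaders and strand maturation enzymes *Pcna*, *Rfc2*, *Rfc3*, *Rfc4*, *Rfc5*, *Dscc1*, *Fen1*, *Lig1* and *Exo1*; the enzymes of deoxynucleotide synthesis *Rrm1*, *Rrm2*, *Tyms* and *Tk1*; and *Uhrf1*, *Chaf1a*, *Chaf1b* and *Slbp*, which act in maintenance methylation, chromatin assembly and histone mRNA processing. Of the 45, 43 were above 1 FPKM in at least 1 condition, 40 in every condition, and 17 at 5 FPKM or more in every condition. *E2f2* (highest value 0.376 FPKM) and *Dscc1*, a clamp loader subunit (highest value 0.928 FPKM), never passed 1 FPKM and entered no count.

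As to the cells, all 9 palatal mesenchyme markers were above 1 FPKM, with *Osr2* between 2.55 and 6.51 FPKM and *Pdgfra* between 2.57 and 9.47 FPKM. Of 5 epithelial markers 1 passed 1 FPKM (*Krt18*, at most 8.59), and *Epcam* and *Cdh1* did not. Of 4 endothelial markers 2 did (*Kdr*, at most 4.39, and *Tek*), without *Pecam1* or *Cdh5*, and of 4 blood markers with an entry 1 did (*Lyz2*, at most 1.71). The summed epithelial markers lay between 1.05 and 9.14 FPKM, the endothelial ones between 1.42 and 6.11 FPKM and the blood ones between 0.711 and 1.81 FPKM, against 3816 to 5765 FPKM for the mesenchyme. Most of the mesenchyme sum came from *Col1a2* (1614 to 2626 FPKM) and *Vim* (1600 to 2617 FPKM), so the sums do not measure the purity of palatal cells. *Krt18* had 0.953 to 4.73 FPKM with inhibitor, against 8.59 FPKM in FGF alone and 3.24 FPKM in PDGF alone, and *Kdr* had 3.02 to 4.39 FPKM with PD325901, against 0.77 to 0.88 FPKM with LY294002. Their part in the results was not tested. The sum of FPKM lay between 377508 and 442788 over the conditions, with 11205 to 11635 entries above 1. In bulk RNA, fewer cycling cells and less of these transcripts per cell cannot be told apart.

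Of the 45 members, 36 have at least 1 RefSeq promoter window, 44 in all (250 bases before to 50 after the annotated start, GRCm38.p6, the assembly also called mm10), and those named without one are *Ccne2*, *Dscc1*, *Exo1*, *Gins1*, *Gins2*, *Mcm4*, *Pole*, *Prim2* and *Rfc2*. Exact matches on either strand to the E2F words TTTCGCGC, TTTGGCGC or TTTCCCGC stood in 15 of these 44 (34.1%), against 606 of all 32851 windows (1.84%). The windows of *Mcm3*, *Mcm5* and *Mcm7* are shown around such a match in at most 30 bases. These genes encode subunits of 1 complex, of which *Mcm7* had its highest values under LY294002 and the other named ones in the ligand-alone conditions. The windows of *Cdc6*, *Cdt1*, *E2f7* and *Uhrf1*, picked from the members with an E2F word, are shown in the same way. Their choice does not mean that the most variable members carry such a word. *E2f8*, *Fen1*, *Mcm10* and *Cdc45* had highest-over-lowest ratios of 3.58, 3.5, 2.86 and 2.81, against 2.32 for *E2f7*, and no E2F word in their windows. Capitals mark 1 E2F word in each, sequences run 5′ to 3′ along the gene, and the last bases are at the end of the window where a context is shorter. In *Mcm5* a further word, TTTGGCGC on the other strand, overlaps the marked one, and its remaining bases are left in lower case. The windows of *Mcm3* and *Mcm7* also hold a further E2F word outside the stretch shown.
*Mcm3*, chr1:20820275-20820304, minus strand: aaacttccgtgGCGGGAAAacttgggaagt
*Mcm5*, chr8:75109345-75109374, plus strand: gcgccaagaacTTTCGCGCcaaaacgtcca
*Mcm7*, chr5:138171849-138171878, minus strand: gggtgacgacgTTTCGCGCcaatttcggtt
*Cdc6*, chr11:98908002-98908031, plus strand: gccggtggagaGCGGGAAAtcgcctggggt
*Cdt1*, chr8:122568036-122568064, plus strand: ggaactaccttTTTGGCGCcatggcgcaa
*E2f7*, chr10:110745230-110745259, plus strand: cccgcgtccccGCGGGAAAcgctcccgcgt
*Uhrf1*, chr17:56304117-56304146, plus strand: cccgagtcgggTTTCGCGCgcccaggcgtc
A match is a description of these letters and no evidence that a factor binds there.

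The whole 300-base windows follow for *Rrm2*, *Mcm2*, *Mcm6* and *Dbf4*, the members with the largest ratio between their highest and lowest condition among those at 5 FPKM or more everywhere that have a window. Capitals mark E2F words and the CCAAT word (ATTGG on the other strand).
*Rrm2*, chr12:24708004-24708303, plus strand: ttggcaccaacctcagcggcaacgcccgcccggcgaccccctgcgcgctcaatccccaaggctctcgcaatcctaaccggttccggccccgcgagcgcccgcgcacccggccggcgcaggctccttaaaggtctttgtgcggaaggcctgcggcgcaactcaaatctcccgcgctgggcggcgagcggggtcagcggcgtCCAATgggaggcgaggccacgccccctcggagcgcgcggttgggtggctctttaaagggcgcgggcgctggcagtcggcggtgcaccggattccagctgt
*Mcm2*, chr6:88898731-88899030, minus strand: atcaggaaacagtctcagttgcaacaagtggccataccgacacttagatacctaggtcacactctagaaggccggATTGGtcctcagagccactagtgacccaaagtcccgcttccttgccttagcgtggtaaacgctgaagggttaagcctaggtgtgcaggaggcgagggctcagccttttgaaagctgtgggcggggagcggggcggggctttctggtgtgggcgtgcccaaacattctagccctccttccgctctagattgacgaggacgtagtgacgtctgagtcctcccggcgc
*Mcm6*, chr1:128359656-128359955, minus strand: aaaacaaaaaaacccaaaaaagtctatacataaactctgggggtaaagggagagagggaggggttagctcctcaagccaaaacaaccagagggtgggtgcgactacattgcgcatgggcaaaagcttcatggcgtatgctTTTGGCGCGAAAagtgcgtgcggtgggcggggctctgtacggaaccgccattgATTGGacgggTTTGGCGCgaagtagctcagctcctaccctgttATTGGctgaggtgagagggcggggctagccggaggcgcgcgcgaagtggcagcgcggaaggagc
*Dbf4*, chr5:8422667-8422966, minus strand: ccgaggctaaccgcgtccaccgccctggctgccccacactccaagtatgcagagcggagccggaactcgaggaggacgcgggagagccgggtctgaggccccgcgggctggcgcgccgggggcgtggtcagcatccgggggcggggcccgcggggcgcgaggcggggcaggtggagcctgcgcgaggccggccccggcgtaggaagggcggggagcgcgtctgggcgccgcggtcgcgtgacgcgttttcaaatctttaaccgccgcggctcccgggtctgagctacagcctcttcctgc
*Mcm6* held 3 E2F words, of which a pair overlap, and 2 CCAAT words. *Rrm2* and *Mcm2* held 1 CCAAT word each, and *Dbf4* held neither. Among the members' windows, CCAAT stood in 54.5% against 37.4% of all windows, the E-box CACGTG in 13.6% against 7.15%, and the CHR words TTTGAA or TTCGAA in 27.3% against 19.2%.

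The most abundant members were *Rrm1* and *Rrm2*, the 2 subunits of ribonucleotide reductase, which averaged 35.8 and 24.4 FPKM over the 10 conditions, then *Rfc2* with 21.2 FPKM, *Pcna* with 19.8 FPKM and *Slbp* with 18.5 FPKM. When each member was centered on its own mean of log2 FPKM, the median over 43 members was 0.13 and −0.14 at 1 and 4 hr in FGF + PD325901 and 0.06 and 0.01 in PDGF + PD325901. It was −0.15 and −0.27 in FGF + LY294002 and −0.16 and −0.35 in PDGF + LY294002, against 0.40 in FGF alone and 0.35 in PDGF alone. FGF alone was the highest of the 10 conditions for 20 members and PDGF alone for 11, and neither was the lowest for any of the 43. The shares of all entries with these highest and lowest conditions were not calculated, so these counts cannot be called particular to the members.

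**Figure D1:**
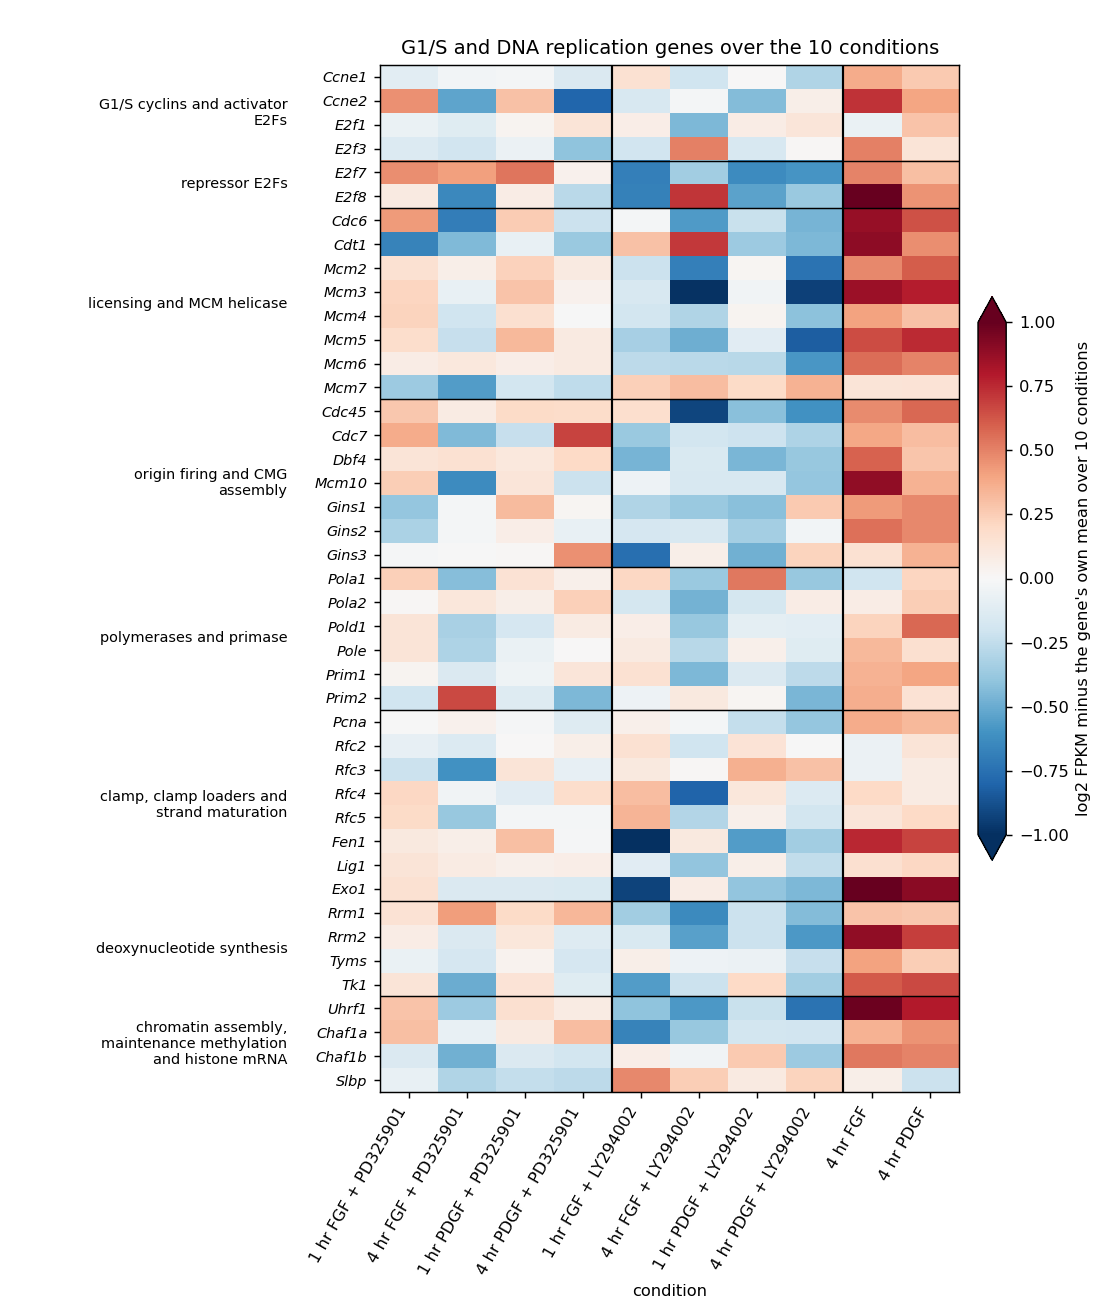
Each row is 1 of the 43 members above 1 FPKM in at least 1 condition, grouped by role, and each column 1 condition, pooled over its replicates. Color is log2 FPKM minus the gene's own mean over the 10 conditions, cut at 1 in size, and the last 2 columns (ligand alone) are red for most genes, while *Mcm7* and *Slbp* are red under LY294002.

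Whether the ligands differ in their effect on these genes was asked first at 4 hr without inhibitor. The median log2 ratio of FGF over PDGF was 0.07 over 43 members, against −0.02 over 11598 entries. *E2f8*, a repressor E2F, was the 1 member higher in FGF by 1.5-fold or more (3.17 FPKM in FGF against 1.92 FPKM in PDGF, 1.65-fold), beside 4.37% of all entries. None was lower, beside 6.58% of all entries. The count of 1 became 0 with a pseudocount of 1, with a filter at 5 FPKM or at 2-fold, and 2 when scaled by 7 reference genes. Of 9 reference genes listed, *Polr2a* had no entry and *Ppia*, at 0 to 0.692 FPKM, did not pass the filter.

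Each inhibitor was then compared with its ligand alone at 4 hr, and in all 4 comparisons at least 39 of 43 members had a ratio below 1, beside 49.4% to 52.4% of all entries. With PD325901 in FGF-treated cells, 18 of 43 members were lower by 1.5-fold or more, beside 11.6% of all entries, and 0 were higher, beside 11.5% of all entries, with a member median of −0.55. With PD325901 in PDGF-treated cells, 13 of 43 were lower (9.57% of all entries) and 0 higher (11.9% of all entries), with a median of −0.41. With LY294002 in FGF-treated cells, 24 of 43 were lower (12.7% of all entries) and 0 higher (11.4% of all entries), and with LY294002 in PDGF-treated cells 26 of 43 were lower (14.5% of all entries) and 0 higher (9.84% of all entries), with a median of −0.66 in both. The 3 lowest members were *E2f8* (3.51-fold), *Cdc6* (2.96-fold) and *Mcm10* (2.86-fold) with PD325901 in FGF-treated cells and *Ccne2* (2.28-fold), *Exo1* (2.08-fold) and *Cdc6* (1.8-fold) in PDGF-treated cells. With LY294002 they were *Mcm3* (3.59-fold), *Uhrf1* (2.95-fold) and *Cdc6* (2.71-fold) in FGF-treated cells and *Mcm3* (3.3-fold), *Mcm5* (2.97-fold) and *Uhrf1* (2.9-fold) in PDGF-treated cells. A few members passed 1 FPKM in the ligand alone but not with the inhibitor, so they entered these counts through the condition where they are high: *E2f8*, *Cdc6* and *Exo1* with PD325901 in FGF-treated cells, and *Cdc6* and *Exo1* in the other 3 comparisons. All of them counted as lower. Among members above 1 FPKM in both conditions, 15 of 40 were lower in FGF + PD325901 (9.73% of entries filtered the same way), 11 of 41 in PDGF + PD325901 (8.48%), 22 of 41 in FGF + LY294002 (10.3%) and 24 of 41 in PDGF + LY294002 (12.6%). The median over all entries lay between −0.03 and 0.01 in these comparisons. The comparisons with 1 ligand share its ligand-alone condition.

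Scaling by the 7 reference genes, whose own median log2 ratio was −0.17 with PD325901 and −0.37 with LY294002 in PDGF-treated cells, left the members' medians below 0 but reduced the lower members to 6 with PD325901 in PDGF-treated cells and to 11 with LY294002 in PDGF-treated cells, where 1 was then higher. In terms of levels, both ligand-alone conditions lay above all 8 inhibitor conditions for 25 of 43 members, beside 11.7% of all 12298 entries, and below all 8 for 0 members, beside 9.25% of all entries. Of the 25, *Exo1* passed 1 FPKM in the ligand-alone conditions only. Among members above 1 FPKM in every condition the count was 23 of 40, beside 12.1% of entries filtered the same way. The exons of 11 members (*Ccne2*, *Cdc45*, *Chaf1a*, *Fen1*, *Gins2*, *Lig1*, *Mcm7*, *Rfc2*, *Rfc4*, *Rfc5* and *Tk1*) overlap a protein-coding gene on the opposite strand, and *Uhrf1* and *Pcna* share 24.2% and 23.3% of their 31-base words with other genes, so these 13 values are uncertain. Without them, 17 of 30 members lay above all 8 inhibitor conditions in both ligands alone. Many entries outside the list thus also separated these conditions, in both directions. Both ligand-alone conditions were of the later time, while the inhibitor conditions include 1 hr, for which ligand alone was not analysed. Wherever all 8 inhibitor conditions are set against ligand alone, inhibitor thus cannot be told apart from time after ligand. The ligand-alone conditions also had 3 samples in place of 2, and no vehicle is named for them. In every comparison with ligand alone, the inhibitor cannot be told apart from any other difference between these sets of libraries.

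**Figure D2:**
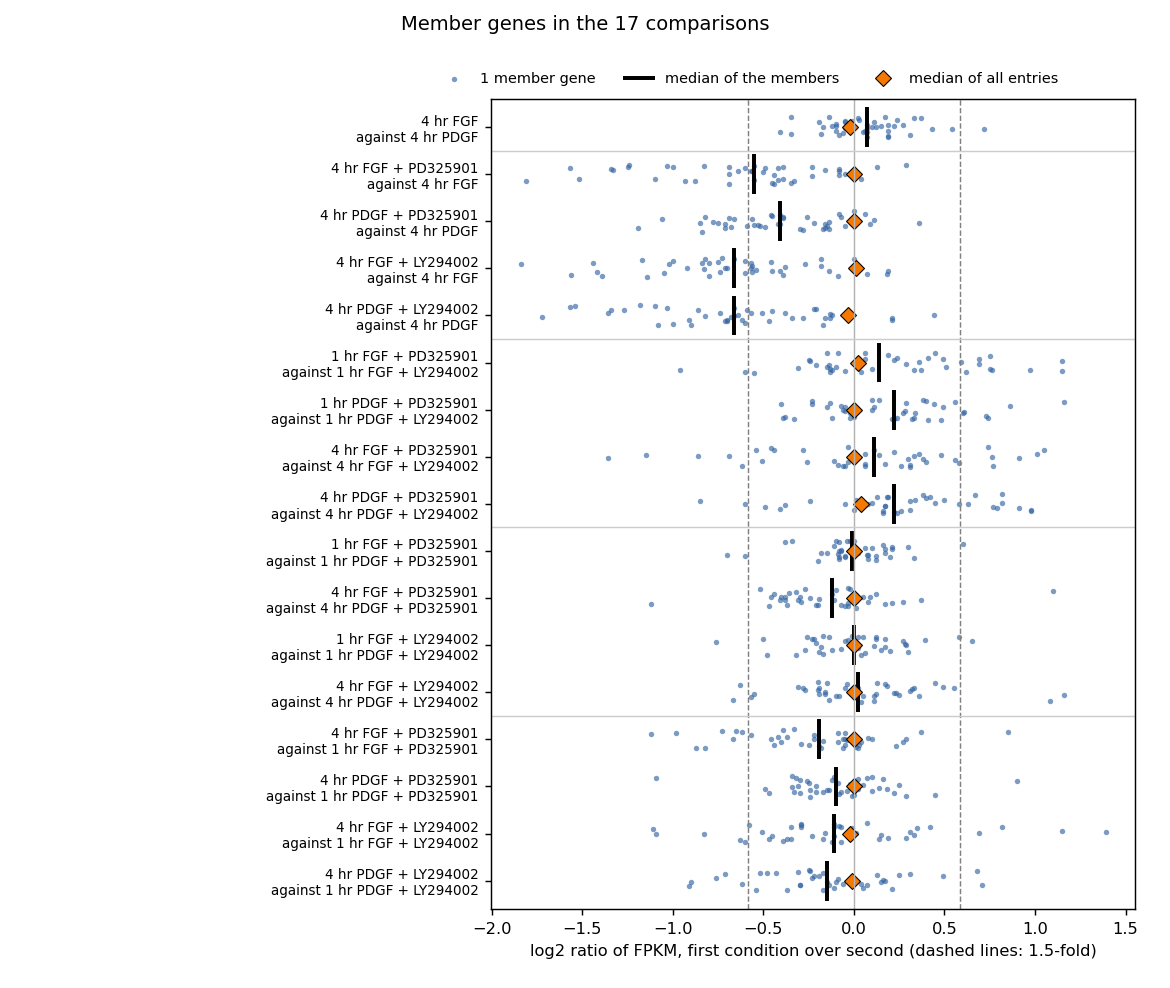
Each row is 1 of the 17 comparisons, named with the condition on top of the ratio first, and each point 1 member on a log2 axis. Black bars are member medians and diamonds the medians of all entries, and the members sit left of 0 in the 4 comparisons with ligand alone (medians −0.55, −0.41, −0.66 and −0.66), while the diamonds sit at 0.

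Among the cyclins and activator E2Fs, *Ccne1*, cyclin E1, was the most abundant. *Ccne1* had 14.8 and 15.7 FPKM at 1 and 4 hr in FGF + PD325901, 15.7 and 14.4 FPKM in PDGF + PD325901, 17.7 and 13.9 FPKM in FGF + LY294002 and 16 and 12.9 FPKM in PDGF + LY294002, against 20.6 FPKM in FGF alone and 19.1 FPKM in PDGF alone. Its ligand-alone values were the highest 2 but lay within 1.59-fold of its lowest value. *Ccne2*, cyclin E2, varied more. *Ccne2* had 3.59 and 1.82 FPKM at 1 and 4 hr in FGF + PD325901, 3.2 and 1.5 FPKM in PDGF + PD325901, 2.34 and 2.58 FPKM in FGF + LY294002 and 1.94 and 2.72 FPKM in PDGF + LY294002, against 4.31 FPKM in FGF alone and 3.44 FPKM in PDGF alone. It was lower after 4 hr than after 1 hr with PD325901 in both ligands, by 1.98-fold with FGF and by 2.13-fold with PDGF, and by 2.38-fold and 2.28-fold than in FGF alone and PDGF alone. *E2f1*, an activator of S-phase genes, had no such excess in FGF alone: its values ran from 8.48 FPKM in FGF + LY294002 at 4 hr to 14.1 FPKM in PDGF alone, with 11 FPKM in FGF alone. *E2f3* stood at 13.5 FPKM in FGF + LY294002 at 4 hr, against 13.6 FPKM in FGF alone, and at 10.5 FPKM or less elsewhere.

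*E2f7* and *E2f8* encode atypical E2Fs that repress E2F targets in late S phase, and they are E2F targets themselves. *E2f7* had 3.41 and 3.28 FPKM at 1 and 4 hr in FGF + PD325901, 3.57 and 2.54 FPKM in PDGF + PD325901, 1.54 and 1.94 FPKM in FGF + LY294002 and 1.6 and 1.64 FPKM in PDGF + LY294002, against 3.47 FPKM in FGF alone and 3.04 FPKM in PDGF alone. The 4 PD325901 values, 2.54 to 3.57 FPKM, lay above the 4 LY294002 values, 1.54 to 1.94 FPKM, and the highest was close to that of FGF alone. *E2f8* had 1.5 and 0.901 FPKM at 1 and 4 hr in FGF + PD325901, 1.48 and 1.17 FPKM in PDGF + PD325901, 0.883 and 2.31 FPKM in FGF + LY294002 and 0.974 and 1.09 FPKM in PDGF + LY294002, against 3.17 FPKM in FGF alone and 1.92 FPKM in PDGF alone. Its 2 highest values after FGF alone were in FGF + LY294002 at 4 hr and in PDGF alone, and 3 of its values were under 1 FPKM. It had the largest ratio of any member with PD325901 in FGF-treated cells, 3.51-fold lower than in FGF alone.

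Among the licensing factors and MCM subunits, 6 of 8 were lower with PD325901 in FGF-treated cells, 4 of 8 with PD325901 in PDGF-treated cells, 6 of 8 with LY294002 in FGF-treated cells and 7 of 8 with LY294002 in PDGF-treated cells. Over all entries these shares were 11.6%, 9.57%, 12.7% and 14.5% in the same order, for this role and for those that follow. In each of the 4 counts *Cdc6* was 1 of those lower, and it passed 1 FPKM in the ligand alone only. The median log2 ratio of this role was −0.78 for FGF + PD325901, −0.59 for PDGF + PD325901, −0.98 for FGF + LY294002 and −1.09 for PDGF + LY294002. *Cdc6*, the ATPase that recruits the helicase, was low throughout. *Cdc6* had 1.18 and 0.542 FPKM at 1 and 4 hr in FGF + PD325901, 1.05 and 0.755 FPKM in PDGF + PD325901, 0.864 and 0.593 FPKM in FGF + LY294002 and 0.752 and 0.634 FPKM in PDGF + LY294002, against 1.6 FPKM in FGF alone and 1.36 FPKM in PDGF alone. Both ligand-alone values lay above all others, and with PD325901 in FGF-treated cells it was 2.96-fold lower than in FGF alone and 2.17-fold lower at 4 hr than at 1 hr. *Cdt1* had 2.56 and 2.99 FPKM at 1 and 4 hr in FGF + PD325901, 3.87 and 3.14 FPKM in PDGF + PD325901, 4.97 and 6.63 FPKM in FGF + LY294002 and 3.16 and 2.98 FPKM in PDGF + LY294002, against 7.54 FPKM in FGF alone and 5.61 FPKM in PDGF alone. *Cdt1*, the partner of Cdc6 in loading, thus stayed at 6.63 FPKM in FGF + LY294002 at 4 hr, while the other inhibitor values were at 4.97 FPKM or below.

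The helicase subunits *Mcm2* to *Mcm6* had their highest values in the ligand-alone conditions. *Mcm2* had 11.4 and 10.7 FPKM at 1 and 4 hr in FGF + PD325901, 12.1 and 10.9 FPKM in PDGF + PD325901, 8.88 and 6.4 FPKM in FGF + LY294002 and 10.4 and 6.17 FPKM in PDGF + LY294002, against 14.4 FPKM in FGF alone and 15.6 FPKM in PDGF alone. *Mcm3* had 8.31 and 6.82 FPKM at 1 and 4 hr in FGF + PD325901, 8.76 and 7.38 FPKM in PDGF + PD325901, 6.44 and 3.62 FPKM in FGF + LY294002 and 6.98 and 3.75 FPKM in PDGF + LY294002, against 13 FPKM in FGF alone and 12.4 FPKM in PDGF alone. *Mcm5* had 6.54 and 4.94 FPKM at 1 and 4 hr in FGF + PD325901, 7.26 and 6.15 FPKM in PDGF + PD325901, 4.59 and 4.12 FPKM in FGF + LY294002 and 5.35 and 3.28 FPKM in PDGF + LY294002, against 9.1 FPKM in FGF alone and 9.73 FPKM in PDGF alone. For all 3, the lowest 2 values were the 4 hr LY294002 conditions and the highest 2 were the ligand-alone conditions. *Mcm3* was 3.59-fold lower in FGF + LY294002 than in FGF alone and 3.3-fold lower in PDGF + LY294002 than in PDGF alone, the largest ratios of any member with LY294002. *Mcm6* had 13.8 and 14.1 FPKM at 1 and 4 hr in FGF + PD325901, 13.8 and 14 FPKM in PDGF + PD325901, 11 and 10.9 FPKM in FGF + LY294002 and 10.8 and 8.77 FPKM in PDGF + LY294002, against 19.3 FPKM in FGF alone and 18.6 FPKM in PDGF alone. *Mcm6* was flat between 1 and 4 hr except in PDGF + LY294002, and its PD325901 values, 13.8 to 14.1 FPKM, lay apart from both the LY294002 values and the ligand-alone values. *Mcm4* ranged from 8.11 FPKM in PDGF + LY294002 at 4 hr to 14.2 FPKM in FGF alone.

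*Mcm7*, the remaining subunit of the same hexamer, had its highest values under LY294002. *Mcm7* had 9.58 and 8.37 FPKM at 1 and 4 hr in FGF + PD325901, 10.8 and 10.3 FPKM in PDGF + PD325901, 14.6 and 15.2 FPKM in FGF + LY294002 and 14.1 and 15.7 FPKM in PDGF + LY294002, against 13.5 FPKM in FGF alone and 13.6 FPKM in PDGF alone. Its 4 PD325901 values, 8.37 to 10.8 FPKM, lay below both ligand-alone values, and its 4 LY294002 values, 14.1 to 15.7 FPKM, above them. Exons of *Mcm7* overlap *Ap4m1* and *Cops6* on the opposite strand, and 33.4% of its 31-base words also occur in other genes, most of them in *Gm5487*. *Cops6* had 101 to 128 FPKM and *Ap4m1* 6.68 to 13.3 FPKM over the conditions. Whether the libraries kept strand is not given in the sources used here, and the part of these genes in the *Mcm7* values was not tested.

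**Figure D3:**
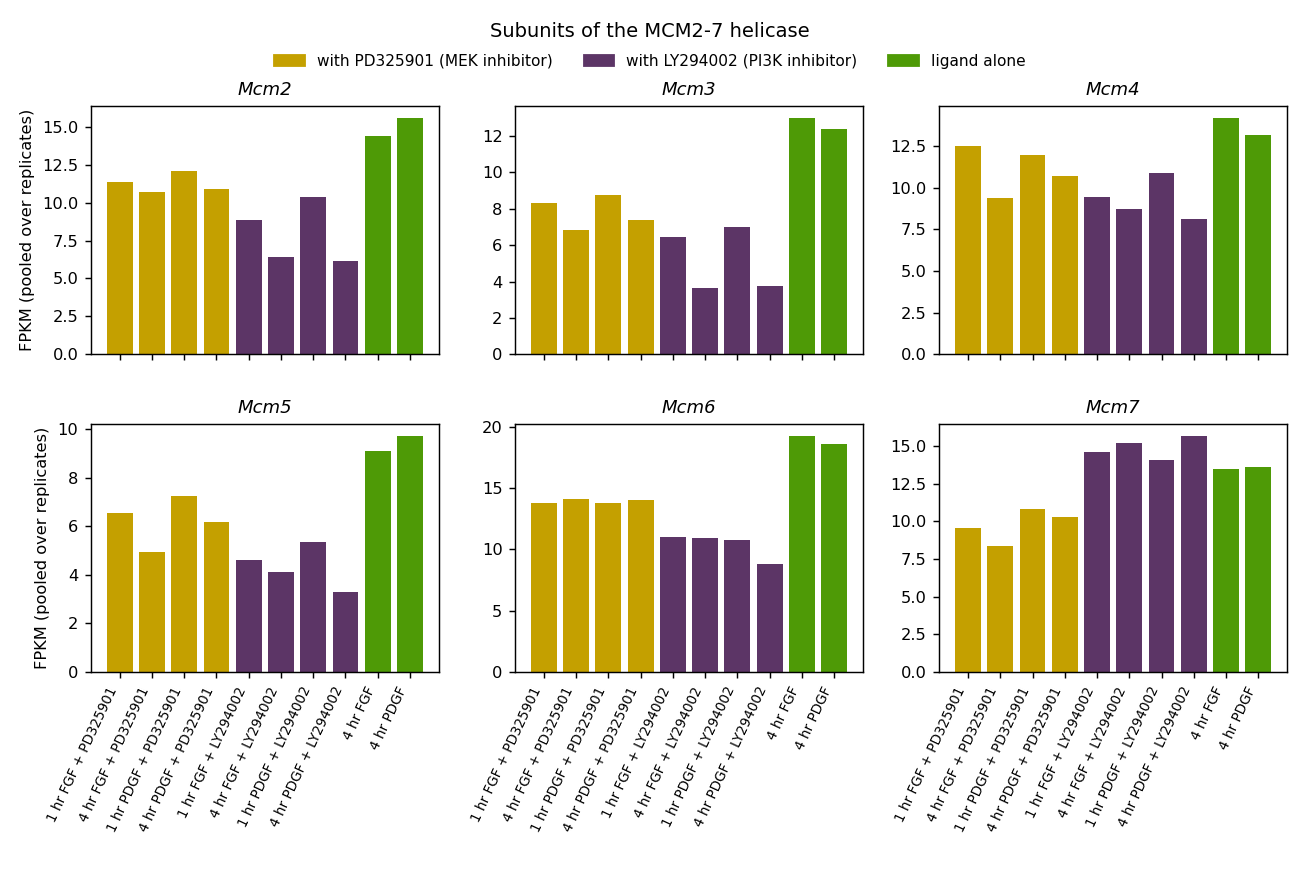
Bars are the pooled FPKM of the 6 MCM subunits in each condition, on axes that start at 0, with the PD325901 conditions first, then LY294002 and then ligand alone. *Mcm2* to *Mcm6* are highest in the ligand-alone conditions, whereas *Mcm7* has at most 10.8 FPKM in the PD325901 conditions and 14.1 to 15.7 FPKM with LY294002.

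Of the 7 origin firing factors, 2 were lower with PD325901 in FGF-treated cells, 0 with PD325901 in PDGF-treated cells, 5 with LY294002 in FGF-treated cells and 4 with LY294002 in PDGF-treated cells. The 0 of 7 is under the 9.57% of all entries. *Gins2*, a GINS subunit, was the most abundant. *Gins2* had 10.6 and 13 FPKM at 1 and 4 hr in FGF + PD325901, 13.7 and 12.5 FPKM in PDGF + PD325901, 11.7 and 11.7 FPKM in FGF + LY294002 and 10.4 and 12.9 FPKM in PDGF + LY294002, against 19.3 FPKM in FGF alone and 18.4 FPKM in PDGF alone. The inhibitor values, none of which passed 13.7 FPKM, lay clear of both ligand-alone values, and the PD325901 and LY294002 values overlapped. Of the 31-base words of *Gins2* 66.2% also occur in *Gse1*, which overlaps it on the opposite strand, so its value is uncertain. *Cdc45* had 4.44 and 3.91 FPKM at 1 and 4 hr in FGF + PD325901, 4.21 and 4.19 FPKM in PDGF + PD325901, 4.15 and 1.95 FPKM in FGF + LY294002 and 2.76 and 2.42 FPKM in PDGF + LY294002, against 5.11 FPKM in FGF alone and 5.48 FPKM in PDGF alone. *Cdc45*, the helicase cofactor, was lowest in the 4 hr LY294002 conditions, 2.62-fold lower with FGF and 2.26-fold lower with PDGF than in the ligand alone.

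*Mcm10*, which helps start unwinding, had the largest range of these factors, 2.86-fold. *Mcm10* had 1.89 and 1.03 FPKM at 1 and 4 hr in FGF + PD325901, 1.74 and 1.38 FPKM in PDGF + PD325901, 1.54 and 1.43 FPKM in FGF + LY294002 and 1.43 and 1.22 FPKM in PDGF + LY294002, against 2.96 FPKM in FGF alone and 2.04 FPKM in PDGF alone. FGF alone stood highest and FGF + PD325901 at 4 hr lowest. *Cdc7* had 2.32 and 1.32 FPKM at 1 and 4 hr in FGF + PD325901, 1.53 and 2.86 FPKM in PDGF + PD325901, 1.38 and 1.57 FPKM in FGF + LY294002 and 1.55 and 1.45 FPKM in PDGF + LY294002, against 2.34 FPKM in FGF alone and 2.22 FPKM in PDGF alone. *Cdc7*, the catalytic kinase subunit, had its lowest value in FGF + PD325901 at 4 hr and its highest in PDGF + PD325901 at 4 hr. Its activator *Dbf4* had 11.3 to 12 FPKM with PD325901 and 7.61 to 9.42 FPKM with LY294002, against 15.8 FPKM in FGF alone and 12.7 FPKM in PDGF alone. *Gins1* ranged from 2.14 to 4 FPKM and *Gins3* from 1.27 to 2.94 FPKM.

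Of the 6 polymerase and primase subunits, 1 was lower with PD325901 in either ligand, 3 with LY294002 in FGF-treated cells and 4 with LY294002 in PDGF-treated cells, and the role medians ran from −0.60 to −0.22. A count of 1 of 6 is the nearest whole number to the 11.6% and 9.57% of all entries. *Prim2*, the large primase subunit, was both the most abundant and the most variable. *Prim2* had 7.26 and 13.1 FPKM at 1 and 4 hr in FGF + PD325901, 7.59 and 6.1 FPKM in PDGF + PD325901, 8.02 and 8.9 FPKM in FGF + LY294002 and 8.43 and 6.06 FPKM in PDGF + LY294002, against 10.7 FPKM in FGF alone and 9.2 FPKM in PDGF alone. Its highest value was in FGF + PD325901 at 4 hr and its lowest 2 in PDGF with either inhibitor at 4 hr. The catalytic primase subunit *Prim1* had 3.43 to 6.18 FPKM, *Pola2* 4.19 to 6.86 FPKM, *Pold1* 3.78 to 7.33 FPKM, *Pole* 1.8 to 2.8 FPKM and *Pola1* 1.7 to 3.3 FPKM. *Prim1*, *Pola2* and *Pold1* had PDGF alone as their highest condition, and *Pola1* had PDGF + LY294002 at 1 hr.

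Of 8 genes for the clamp, its loaders and the maturation enzymes, 2 were lower with PD325901 and 3 with LY294002 in either ligand. These counts are about 1 or 2 genes above the shares of all entries. In each of them 1 gene was *Exo1*, which passed 1 FPKM in the ligand alone only and so entered through the condition where it is high. *Rfc2* had 20 and 19.2 FPKM at 1 and 4 hr in FGF + PD325901, 21.2 and 22 FPKM in PDGF + PD325901, 23.6 and 18.5 FPKM in FGF + LY294002 and 23.3 and 21.1 FPKM in PDGF + LY294002, against 20.4 FPKM in FGF alone and 23.1 FPKM in PDGF alone. *Rfc2*, a loader subunit, thus had the smallest range of any member, 1.28-fold. *Rfc3* had 7.27 to 14.1 FPKM and *Rfc5* 3.5 to 5.75 FPKM, and their highest values were in LY294002 conditions of 1 hr. *Rfc4* had 7.87 and 6.63 FPKM at 1 and 4 hr in FGF + PD325901, 6.27 and 7.67 FPKM in PDGF + PD325901, 8.44 and 3.9 FPKM in FGF + LY294002 and 7.35 and 6.2 FPKM in PDGF + LY294002, against 7.8 FPKM in FGF alone and 7.19 FPKM in PDGF alone. *Rfc4* was low in 1 condition, FGF + LY294002 at 4 hr, and overlaps the abundant *Eif4a2* (89.5 to 160 FPKM) on the opposite strand.

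*Pcna*, the sliding clamp, had 15 to 20.2 FPKM in the inhibitor conditions, against 25.3 FPKM in FGF alone and 24.5 FPKM in PDGF alone. *Lig1*, the ligase that joins Okazaki fragments, ran from 5.2 to 7.9 FPKM. *Fen1* had 6.12 and 5.96 FPKM at 1 and 4 hr in FGF + PD325901, 7.02 and 5.65 FPKM in PDGF + PD325901, 2.75 and 6.1 FPKM in FGF + LY294002 and 3.88 and 4.48 FPKM in PDGF + LY294002, against 9.61 FPKM in FGF alone and 9.14 FPKM in PDGF alone. *Fen1*, the flap nuclease, was highest in both ligand-alone conditions and lowest in LY294002 at 1 hr. Of its 31-base words 79.6% also occur in other genes, most in *Gm10143* on the opposite strand, so its value is uncertain. *Exo1* had 0.849 and 0.691 FPKM at 1 and 4 hr in FGF + PD325901, 0.691 and 0.686 FPKM in PDGF + PD325901, 0.402 and 0.802 FPKM in FGF + LY294002 and 0.58 and 0.558 FPKM in PDGF + LY294002, against 1.63 FPKM in FGF alone and 1.43 FPKM in PDGF alone. *Exo1*, an exonuclease, passed 1 FPKM in the 2 ligand-alone conditions alone.

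Ribonucleotide reductase showed a contrast between its subunits. *Rrm1* had 38.4 and 46.3 FPKM at 1 and 4 hr in FGF + PD325901, 39.7 and 43.7 FPKM in PDGF + PD325901, 27.3 and 22.3 FPKM in FGF + LY294002 and 30 and 25.7 FPKM in PDGF + LY294002, against 42.3 FPKM in FGF alone and 41.8 FPKM in PDGF alone. *Rrm1*, the large subunit, had PD325901 values, 38.4 to 46.3 FPKM, that spanned the ligand-alone values, and LY294002 values of 30 FPKM or less. *Rrm2* had 24.4 and 21 FPKM at 1 and 4 hr in FGF + PD325901, 25 and 21.2 FPKM in PDGF + PD325901, 20.9 and 16 FPKM in FGF + LY294002 and 20 and 15.6 FPKM in PDGF + LY294002, against 42.8 FPKM in FGF alone and 37.4 FPKM in PDGF alone. *Rrm2*, the small subunit, was lower with either inhibitor: by 2.04-fold and 1.76-fold with PD325901 in FGF-treated and PDGF-treated cells, and by 2.68-fold and 2.41-fold with LY294002. *Tk1* had 5.54 and 3.6 FPKM at 1 and 4 hr in FGF + PD325901, 5.58 and 4.65 FPKM in PDGF + PD325901, 3.43 and 4.37 FPKM in FGF + LY294002 and 5.8 and 3.98 FPKM in PDGF + LY294002, against 7.73 FPKM in FGF alone and 7.98 FPKM in PDGF alone. *Tk1*, thymidine kinase, was highest in the ligand-alone conditions, and its exons overlap *Afmid* on the opposite strand. *Tyms*, thymidylate synthase, had 2.9 to 3.54 FPKM with inhibitor, against 4.47 FPKM in FGF alone and 4.02 FPKM in PDGF alone.

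*Uhrf1*, which brings the maintenance methyltransferase to replicated DNA, had one of the widest ranges. *Uhrf1* had 5.88 and 3.75 FPKM at 1 and 4 hr in FGF + PD325901, 5.39 and 5.1 FPKM in PDGF + PD325901, 3.64 and 3.23 FPKM in FGF + LY294002 and 4.13 and 2.88 FPKM in PDGF + LY294002, against 9.53 FPKM in FGF alone and 8.36 FPKM in PDGF alone. It was 2.95-fold lower in FGF + LY294002 at 4 hr than in FGF alone and 2.9-fold lower in PDGF + LY294002 than in PDGF alone. The 2 large subunits of the chromatin assembly factor differed in part. *Chaf1a* had 5.98 to 7.77 FPKM with PD325901 and 3.97 to 5.55 FPKM with LY294002, against 7.99 FPKM in FGF alone and 8.57 FPKM in PDGF alone. Of the 31-base words of *Chaf1a* 51% also occur in other genes, most in *Ubxn6* (30.2 to 45.4 FPKM) on the opposite strand, so its value is uncertain. *Chaf1b* had 3.17 and 2.52 FPKM at 1 and 4 hr in FGF + PD325901, 3.18 and 3.1 FPKM in PDGF + PD325901, 3.68 and 3.42 FPKM in FGF + LY294002 and 4.21 and 2.73 FPKM in PDGF + LY294002, against 5.06 FPKM in FGF alone and 4.94 FPKM in PDGF alone. *Chaf1b* was thus below 4.94 FPKM in every inhibitor condition, with its PD325901 and LY294002 values overlapping. *Slbp*, the histone stem-loop binding protein, did not follow the other 3. *Slbp* had 17.3 and 14.9 FPKM at 1 and 4 hr in FGF + PD325901, 15.4 and 15.2 FPKM in PDGF + PD325901, 25.4 and 21.6 FPKM in FGF + LY294002 and 19.5 and 21.3 FPKM in PDGF + LY294002, against 19 FPKM in FGF alone and 15.7 FPKM in PDGF alone. Its 4 PD325901 values, 14.9 to 17.3 FPKM, lay below its 4 LY294002 values, 19.5 to 25.4 FPKM, which were also above both ligand-alone values.

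The inhibitors were compared directly at matched ligand and time. The member median log2 ratio of PD325901 over LY294002 was 0.14 with FGF at 1 hr, 0.22 with PDGF at 1 hr, 0.11 with FGF at 4 hr and 0.22 with PDGF at 4 hr, against 0.00 to 0.04 over all entries. Scaled by the reference genes the medians at 4 hr were −0.02 with FGF and 0.00 with PDGF, so the direction of the list as a whole at 4 hr depends on the scaling. With FGF at 1 hr, 10 of 42 members were higher with PD325901 (12.0% of all entries), led by *Fen1* (2.23-fold), *E2f7* (2.22-fold) and *Chaf1a* (1.96-fold). There, 2 were lower (7.78% of all entries), *Cdt1* (1.94-fold) and *Mcm7* (1.52-fold). With PDGF at 1 hr, 6 of 42 were higher (8.86% of all entries), led by *E2f7* (2.24-fold), *Fen1* (1.81-fold) and *Gins1* (1.67-fold), and 0 were lower (6.21% of all entries). *E2f8*, counted as higher at 1 hr with both ligands, was below 1 FPKM with LY294002. Among members above 1 FPKM in both conditions, 9 of 40 were higher with FGF (10.1% of entries filtered the same way) and 5 of 40 with PDGF (7.29%).

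With FGF at 4 hr, 6 of 41 were higher with PD325901 (12.6% of all entries), led by *Rrm1* (2.07-fold), *Cdc45* (2.01-fold) and *Mcm3* (1.88-fold), and 5 were lower (11.6% of all entries), led by *E2f8* (2.56-fold), *Cdt1* (2.22-fold) and *Mcm7* (1.82-fold). *E2f8* passed 1 FPKM with LY294002 only, where it is high. Among members above 1 FPKM in both conditions, 4 of 40 were lower (10.2% of entries filtered the same way). With PDGF at 4 hr, 9 of 41 were higher (12.8% of all entries), led by *Cdc7* (1.97-fold), *Mcm3* (1.97-fold) and *Mcm5* (1.88-fold), and 2 were lower (6.97% of all entries), *Ccne2* (1.81-fold) and *Mcm7* (1.52-fold). With FGF at 4 hr the members' shares, 14.6% higher and 12.2% lower, were near those of all entries. The counts of the other 3 pairs depended on the processing. With PDGF at 4 hr the 9 higher and 2 lower became 5 and 5 when scaled by the reference genes. With FGF at 1 hr the 10 higher became 3 with a pseudocount of 1, 5 with a filter at 5 FPKM and 5 without the 13 members of uncertain value. With PDGF at 1 hr the 6 higher became 2, 1 and 3 under the same settings.

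Without regard to size, over all 4 pairs of ligand and time, 13 of 42 members were higher with PD325901 each time, beside 23.3% of all entries: *E2f7*, *Mcm2* to *Mcm6*, *Cdc45*, *Dbf4*, *Pola2*, *Rrm1*, *Rrm2*, *Uhrf1* and *Chaf1a*. For 7 of them (*E2f7*, *Mcm2*, *Mcm6*, *Dbf4*, *Rrm1*, *Rrm2* and *Chaf1a*) every PD325901 value lay above every LY294002 value, beside 11.3% of all entries. *Mcm7*, *Rfc3* and *Slbp* were lower with PD325901 each time, 3 of 42 beside 21.0% of all entries, and for *Mcm7* and *Slbp*, 2 of 42 beside 11.0% of all entries, the values did not overlap. As shares of the members, 31.0% were higher and 7.14% lower in every pair, again without regard to size. These counts were not repeated with the reference-gene scaling.

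**Figure D4:**
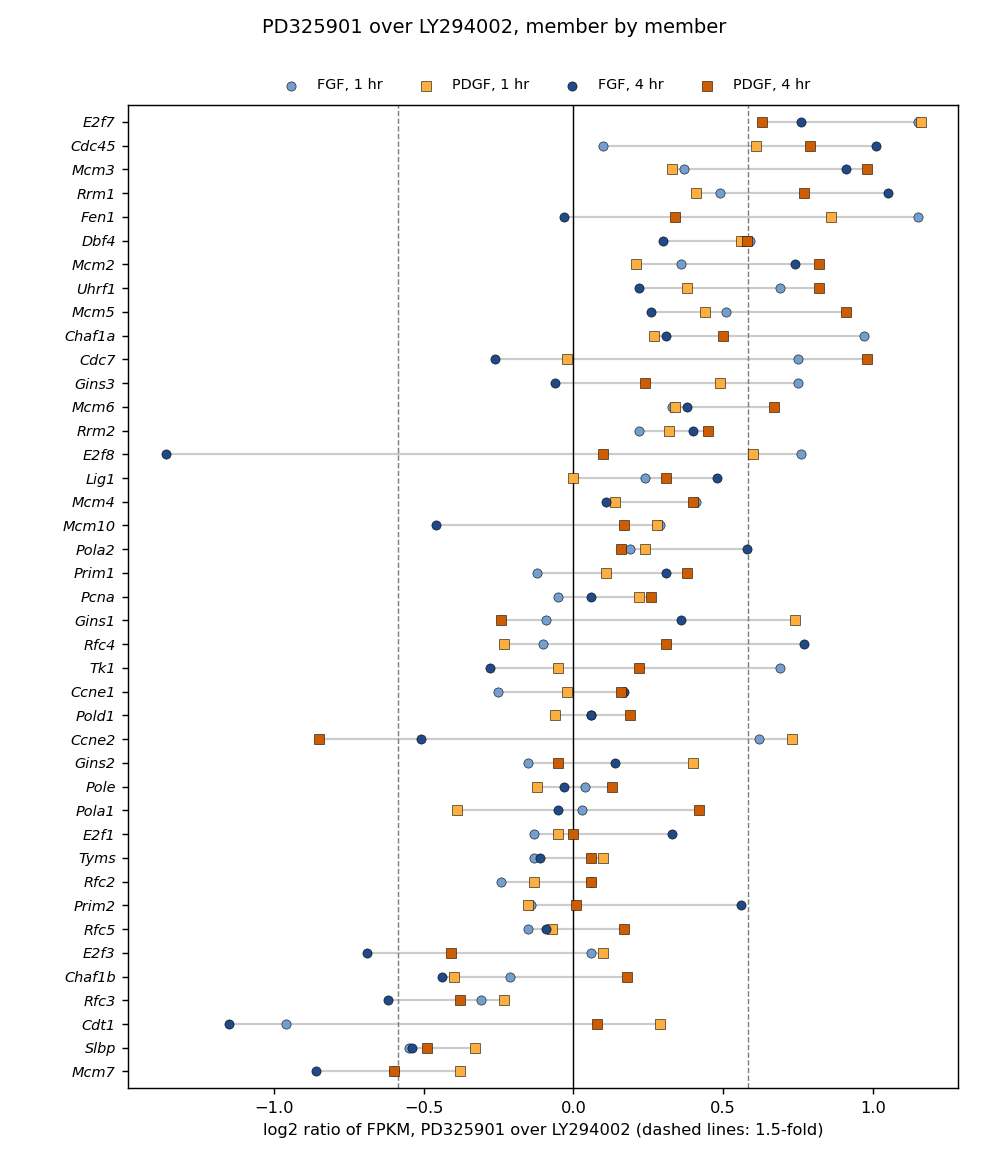
Each row is 1 of the 41 members with a ratio in all 4 pairs, ordered by its median, and each symbol the log2 ratio of PD325901 over LY294002 in 1 ligand at 1 time. *E2f7* is right of 0 in every pair, at 1.15 and 1.16 at 1 hr, and *Mcm7* left of 0 in every pair, while *E2f8* and *Ccne2* span both sides.

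The ligands were also compared under each inhibitor. With PD325901 at 1 hr the median log2 ratio of FGF over PDGF was −0.01. There, 1 of 42 members was higher (*Cdc7*, 1.52-fold, beside 3.76% of all entries) and 2 were lower (*Gins1*, 1.63-fold, and *Cdt1*, 1.51-fold, beside 1.65% of all entries). With PD325901 at 4 hr the median was −0.12, with 1 of 41 higher (*Prim2*, 2.15-fold, beside 6.20% of all entries) and 1 lower (*Cdc7*, 2.17-fold, beside 13.2% of all entries). With LY294002 at 1 hr the median was 0.00, with 1 of 40 higher (*Cdt1*, 1.57-fold, beside 4.14% of all entries) and 1 lower (*Tk1*, 1.69-fold, beside 2.76% of all entries). With LY294002 at 4 hr it was 0.02, with 2 of 41 higher (*Cdt1*, 2.23-fold, and *E2f8*, 2.11-fold, beside 8.95% of all entries) and 2 lower (*Rfc4*, 1.59-fold, and *Gins1*, 1.55-fold, beside 9.51% of all entries).

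Between 1 and 4 hr under an inhibitor, member medians lay just below 0 in all 4 series, at −0.19 in FGF + PD325901, −0.10 in PDGF + PD325901, −0.11 in FGF + LY294002 and −0.15 in PDGF + LY294002. Scaling by the reference genes turned the last to 0.04 and brought FGF + LY294002 to 0.00. In FGF + PD325901, 8 of 42 were lower at 4 hr (9.92% of all entries), led by *Cdc6* (2.17-fold), *Ccne2* (1.98-fold) and *Mcm10* (1.83-fold). Of the 8, *Cdc6* and *E2f8* passed 1 FPKM at 1 hr only, so they entered through the time where they are high. Among members above 1 FPKM at both times, 6 of 40 were lower (7.40% of entries filtered the same way). *Prim2* was higher (1.81-fold, 1 of 42 beside 4.44% of all entries). In PDGF + PD325901, *Ccne2* was lower (2.13-fold, 1 of 42 beside 3.63% of all entries) and *Cdc7* higher (1.87-fold, 1 of 42 beside 8.27% of all entries).

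In FGF + LY294002, 5 of 41 were lower at 4 hr (12.2% of all entries), led by *Rfc4* (2.16-fold), *Cdc45* (2.13-fold) and *Mcm3* (1.78-fold), and 4 were higher (11.4% of all entries), led by *E2f8* (2.61-fold), *Fen1* (2.22-fold) and *Gins3* (1.76-fold). *E2f8* passed 1 FPKM at 4 hr only, where it is high. Among members above 1 FPKM at both times, 3 of 40 were higher (10.2% of entries filtered the same way). In PDGF + LY294002, 5 of 41 were lower (5.51% of all entries), led by *Pola1* (1.87-fold), *Mcm3* (1.86-fold) and *Mcm2* (1.69-fold), and 2 were higher (4.91% of all entries), *Gins3* (1.63-fold) and *Gins1* (1.6-fold). With LY294002 and both ligands, 23 of 41 members were lower at 4 hr than at 1 hr without regard to size, beside 33.7% of all entries, among them *Mcm2* to *Mcm6*, *Cdc45*, *Pcna*, *Rrm1* and *Rrm2*. Another 9 of 41 were higher, beside 31.2% of all entries, among them *Ccne2*, *E2f7*, *E2f8* and *Mcm7*. These 2 counts were not repeated with the reference-gene scaling. The reference genes' own median log2 ratio was −0.12 with FGF and −0.18 with PDGF, so small differences may depend on it.

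Other genes of the cell cycle, taken from 4 lists of 69 genes, were set beside the members. Of 10 genes for origin recognition and licensing control, PD325901 left 4 lower than in FGF alone and 0 lower than in PDGF alone, and LY294002 left 4 and 3 lower, beside 11.6%, 9.57%, 12.7% and 14.5% of all entries in that order. In FGF + LY294002, 1 was higher, beside 11.4% of all entries. *Gmnn*, geminin, which blocks Cdt1, had the widest range of those above 1 FPKM in every condition. *Gmnn* had 6.31 and 5.23 FPKM at 1 and 4 hr in FGF + PD325901, 7.15 and 8.28 FPKM in PDGF + PD325901, 3.02 and 3.36 FPKM in FGF + LY294002 and 4.83 and 5.83 FPKM in PDGF + LY294002, against 8.7 FPKM in FGF alone and 9.1 FPKM in PDGF alone. *Orc5* ran from 4.81 to 8.5 FPKM and *Mcm9* from 1.36 to 2.48 FPKM, and *Mcm9* had its 2 lowest values in the ligand-alone conditions.

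Among 27 further replication proteins, of which 26 were above 1 FPKM in some condition, both ligand-alone values lay above all inhibitor values for 13 of 26, beside 11.7% of all entries. PD325901 left 12 of 25 lower with FGF, beside 11.6% of all entries, and 3 of 26 lower with PDGF, which is near the 9.57% of all entries. LY294002 left 9 of 25 lower with FGF, beside 12.7%, and 9 of 26 with PDGF, beside 14.5%, and 0 were higher in all 4, beside 9.84% to 11.9% of all entries. The 3 widest ranges among those above 1 FPKM in every condition were as follows. *Hells*, a chromatin remodeler, had 4.25 to 5.86 FPKM with PD325901 and 2.26 to 3.94 FPKM with LY294002, against 6.61 FPKM in FGF alone and 5.59 FPKM in PDGF alone. *Rpa3*, a subunit of the single-strand binding protein, had 8.44 to 15.2 FPKM with inhibitor, against 21.1 FPKM in FGF alone and 19.9 FPKM in PDGF alone. *Asf1b*, a histone chaperone, had 3.06 to 4.44 FPKM with inhibitor, against 7.52 FPKM in FGF alone and 6.85 FPKM in PDGF alone. *Cdca7*, which falls outside that rule and was chosen after its values were seen, had a wider range, 0.851 to 2.76 FPKM with inhibitor, against 5.37 FPKM in FGF alone and 3.27 FPKM in PDGF alone.

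Of the 20 upstream regulators of G1/S, both ligand-alone values lay above all inhibitor values for 3 and below them for 2, beside 11.7% and 9.25% of all entries. Set against FGF alone, PD325901 gave 8 lower and 1 higher (11.6% and 11.5% of all entries) and LY294002 gave 6 lower and 0 higher (12.7% and 11.4%). Set against PDGF alone, PD325901 gave 4 lower and 2 higher (9.57% and 11.9% of all entries) and LY294002 gave 6 lower and 3 higher (14.5% and 9.84%). *Myc* encodes a transcription factor induced by growth factors. *Myc* had 20.2 and 14.6 FPKM at 1 and 4 hr in FGF + PD325901, 6.06 and 5.85 FPKM in PDGF + PD325901, 54.2 and 49.8 FPKM in FGF + LY294002 and 9.67 and 11.8 FPKM in PDGF + LY294002, against 74.9 FPKM in FGF alone and 26.6 FPKM in PDGF alone. Each FGF value lay above all of the PDGF values with the same inhibitor. *Ccnd1*, cyclin D1, whose entry also carries *Mir3962*, had 49.8 to 121 FPKM with inhibitor, against 222 FPKM in FGF alone and 141 FPKM in PDGF alone. *E2f6*, a repressor E2F, ran from 18.4 FPKM in PDGF + PD325901 at 4 hr to 55.7 FPKM in FGF alone.

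For the 12 genes of G2 and mitosis, both ligand-alone values lay above all inhibitor values for 11 of 12 (11.7% of all entries). PD325901 lay above LY294002 in all 4 pairs for 11 of 12 (23.3% of all entries), with no overlap for 9 of 12 (11.3% of all entries). With LY294002, 11 of 12 were lower in either ligand, beside 12.7% of all entries with FGF and 14.5% with PDGF. PD325901 left 8 lower than in FGF alone (11.6% of all entries) and 2 lower than in PDGF alone (9.57% of all entries), and the median log2 ratio of PD325901 over LY294002 lay between 0.45 and 0.70. *Plk1* had 9.73 and 7.66 FPKM at 1 and 4 hr in FGF + PD325901, 7.75 and 9.48 FPKM in PDGF + PD325901, 3.3 and 4.8 FPKM in FGF + LY294002 and 4.21 and 4.32 FPKM in PDGF + LY294002, against 12.5 FPKM in FGF alone and 13.8 FPKM in PDGF alone. *Plk1* and *Aurka*, kinases of mitotic entry, and *Cdc20*, the activator of the anaphase-promoting complex, had the widest ranges. *Aurka* had 7.56 to 9 FPKM with PD325901 and 3.37 to 4.44 FPKM with LY294002, against 12.8 FPKM in FGF alone and 13.6 FPKM in PDGF alone. *Cdc20* had 14.2 to 17.6 FPKM with PD325901 and 7.61 to 8.27 FPKM with LY294002, against 23.2 FPKM in FGF alone and 26.8 FPKM in PDGF alone.

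Lastly, 7409 entries with at least 5 FPKM in every condition were ranked by Pearson's r of log2(FPKM + 0.1) with the members' median profile over the 10 pooled conditions, as a description over points that share libraries. *Rrm2* ranked 1 (r = 0.97), and *Mcm4*, *Mcm6* and *Mcm2* ranked 7, 12 and 30. The 17 members among these entries, which helped to make the profile, had a median r of 0.72, against 0.01 over all 7409, and *Rfc3*, *Mcm7* and *Slbp* had r of −0.17, −0.21 and −0.45. The 10 non-members most like the profile, with r from 0.94 to 0.96, were *Ccna2*, *Cdk1*, *Slc1a5*, *Snhg15*, *Slc11a2*, *Top2a*, *Slc6a6*, *Prkag2*, *Birc5* and *Mrpl36*. *Ccna2*, cyclin A, and *Cdk1*, its partner kinase, ranked 2 and 3. By Spearman's rho, 2 of these 10 remained, and over the 8 inhibitor conditions alone 0 did.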

How the data were processed

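Poly-A RNA of 22 MEPM samples was sequenced, and the authors deposited 1 table with an FPKM value per entry and condition, pooled over the replicates. The submitters' processing notes name CASAVA, TopHat, Cuffdiff and mm10, with versions not given in the sources used here. FPKM is corrected for transcript length and library size, and the read depth cannot be recovered from it, so precision at low values is unknown. Another 3 columns hold conditions of none of these samples and were not used.

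Samples were grouped by their titles into 10 conditions. For 17 comparisons, log2 ratios were calculated with no pseudocount among entries above 1 FPKM in either condition, and 1.5-fold or more was counted. No test was possible without values per sample. All members and lists were chosen with earlier results of these data known. Values in every condition are given, within each role, for the most abundant member and the most variable one above 1 FPKM throughout, and for every member at 2-fold or more in some comparison. *Mcm7* was added after its values were seen. Of each other list the up to 3 most variable genes above 1 FPKM in every condition are named, with *Cdca7* added after its values were seen, and of each comparison the up to 3 highest and lowest members. Promoter windows came from RefSeq, and overlaps and shared 31-base words from GENCODE M21. Alternatives were other pseudocounts, filters, scalings, size rules and summaries. The ratio script was tested on simulated data. Python 3.11.15, pandas 2.3.3, NumPy 2.4.6 and matplotlib 3.10.9 were used.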

Additional observations from a re-analysis of the deposited data

Results flagged for a closer look

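Several members had ratios past 1.5-fold in opposite directions in paired contrasts, and none of these differences was tested. All the values behind them were low, between 0.883 and 4.97 FPKM, and *E2f8* was below 1 FPKM in 1 condition of each of its ratios. *Ccne2* is among the members of uncertain value. The share of all entries with such opposite ratios was not calculated. For PD325901 over LY294002 with PDGF, *Ccne2* had a log2 ratio of 0.73 at 1 hr and −0.85 at 4 hr. For PD325901 over LY294002 with FGF, *E2f8* had 0.76 at 1 hr and −1.36 at 4 hr. For 4 hr over 1 hr with FGF, *E2f8* had −0.73 with PD325901 and 1.39 with LY294002. For FGF over PDGF at 1 hr, *Cdt1* had −0.60 with PD325901 and 0.65 with LY294002. For FGF over PDGF with PD325901, *Cdc7* had 0.60 at 1 hr and −1.12 at 4 hr. For 4 hr over 1 hr with PD325901, *Cdc7* had −0.82 with FGF and 0.90 with PDGF.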

How the results depend on the processing

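No paired analysis was possible because the pooled values carry no replicate, and replicates could not be left out for the same reason. In the 4 comparisons with ligand alone the member medians stayed below 0 under every alternative run. Scaling by the reference genes gave −0.24 with PD325901 and −0.29 with LY294002 in PDGF-treated cells. A pseudocount of 1 gave −0.44 with PD325901 and −0.55 with LY294002 in FGF-treated cells and −0.53 with LY294002 in PDGF-treated cells. For PD325901 over LY294002, the reference-gene scaling gave 0.26 with FGF at 1 hr, −0.02 with FGF at 4 hr and 0.00 with PDGF at 4 hr, where the direction was lost, and a filter at 5 FPKM gave 0.30 with FGF at 4 hr. That scaling also gave 0.16 for FGF over PDGF with PD325901 at 1 hr. For 4 hr over 1 hr it gave −0.32 in FGF + PD325901, 0.00 in FGF + LY294002 and 0.04 in PDGF + LY294002, and the 5 FPKM filter gave −0.29 in FGF + LY294002. The cause was not tested. The members lower than in ligand alone numbered 16, 11 and 10 in FGF + PD325901, 6, 8 and 2 in PDGF + PD325901, 21, 17 and 9 in FGF + LY294002 and 11, 18 and 11 in PDGF + LY294002, counting first with the reference-gene scaling, then with the 5 FPKM filter, then at 2-fold. Of the 10 non-members most like the profile, 2 were shared under Spearman's rho and 0 over the 8 inhibitor conditions. The last setting, and leaving out 13 members whose exons overlap or that share sequence, were chosen after seeing the data, and without those members 13 were lower in FGF + PD325901, 9 in PDGF + PD325901, 16 in FGF + LY294002 and 20 in PDGF + LY294002. A filter above 1 FPKM in both conditions, also chosen after seeing the data, moved no median by 0.1 or more and no count by over 1.5 times. Summing entries gave the same values, since each member has 1 entry.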
